A study of Mus musculus with 12 samples.

Results

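B4 elements are a class of rodent SINEs, the short interspersed repeats of the genome. The members described here were the repeat rows whose class label was SINE/B4 and that had a CpG methylation level in all 12 libraries. They numbered 2475 of 133311 features with a level in every library, or 7.13% of the 34707 repeats among them, out of 4042 B4 rows found in at least 1 library. Each row named a subfamily and an interval of its consensus sequence, for example RSINE1 13-163, where the numbers were read as the first and last consensus base matched. A label names no genome position, so a level was read as the pooled calls of all copies with that label. How many copies stand behind a row was not analysed here, and a rare interval could be 1 copy. By subfamily there were 711 B4A, 523 B4, 476 RSINE1 and 765 ID_B1 members. The class and 1 of its subfamilies share the name B4, so the latter is called the B4 subfamily below.

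SINEs do not encode proteins. They are transcribed by RNA polymerase III from an internal promoter and are copied into new sites by the enzymes of L1 elements. B4 sequences are usually described as a fusion of a tRNA-derived ID part at the 5′ end and a B1 part at the 3′ end, and the name ID_B1 spells out that structure. In somatic cells the CpGs of such repeats are mostly methylated, while primordial germ cells (PGCs) erase much of their genomic methylation as they move into and settle the gonad.

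The study asked how far PGC-like cells made from parthenogenetic embryonic stem cells resemble PGCs of the embryo. All cells were C57BL6. Female ESCs came from fertilized blastocysts and pESCs from oocytes activated without sperm, using strontium with cytochalasin D, and the lines grew on feeder cells. By the study's methods, the lines induced to germ cells bore an Actin-GFP transgene. They were maintained in serum with LIF, and then for some passages in t2iL medium, which has a reduced inhibitor dose, before induction. ESC-PGCLCs and pESC-PGCLCs were made from these lines in 2 steps, 2 days with bFGF, activin A and KSR to give epiblast-like cells and then 4 days with BMP4, SCF, EGF and LIF, and were sorted for CD61 and SSEA1. PGCs were isolated from female embryos at E9.5 and E12.5 by sorting for CD61 and SSEA1 or with magnetic beads against SSEA1. The PGCLCs thus represent culture-made cells of 1 sorted phenotype, and the sources used here do not say whether the 2 libraries of a stem cell group came from separate lines. Each of the 6 groups held 2 libraries of reduced representation bisulfite sequencing (RRBS), an assay that reads CpGs near MspI sites. The limma p-values rest on a spread between replicates that is pooled over the groups of a fit and adjusted with that of all features. The exact tests permute or sign-flip whole libraries. No p-value here measures variation beyond the libraries used.

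Levels were deposited as fractions of methylated CpG calls without read counts. The depth behind a level is therefore unknown, and no counting interval is given. Between 144375 and 166476 features, including 2778 to 3807 B4 rows, had a level in a library. The ESC libraries stood apart from each other. Their B4 members differed by 11.6 percentage points on average, and 53.2% of members differed by at least 10 points. In pESCs the mean difference between replicates was 5.94 points, and in the 4 PGC and PGCLC groups it was 4.24 to 4.92 points.

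B4 methylation was highest in E9.5 PGCs and lowest in the stem cells and E12.5 PGCs, with both PGCLCs in between. The mean over the 2475 members was 63.0% and 62.7% in the 2 E9.5 PGC libraries, while the 2 libraries of E12.5 PGCs gave 40.4% and 40.6%. ESC-PGCLCs had 50.1% and 50.0%, and pESC-PGCLCs 46.3% and 45.5%. The 4 germ cell groups did not overlap with one another. Of the stem cells, pESCs had 38.9% and 37.1% and lay between the ESC libraries at 42.9% and 33.5%. E12.5 PGCs also lay between the ESC libraries, so ESCs could not be ordered against pESCs or E12.5 PGCs. Both pESC libraries were below both E12.5 PGC libraries, a difference that was not tested.

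E12.5 PGCs were 22.4 points below E9.5 PGCs. ESC-PGCLCs were 12.9 points and pESC-PGCLCs 17.0 points below E9.5 PGCs, and 9.50 and 5.40 points above E12.5 PGCs. These comparisons share libraries with one another. pESC-PGCLCs were 4.10 points below ESC-PGCLCs. Relative to the cells they were made from, ESC-PGCLCs gained 11.8 points and pESC-PGCLCs 7.93 points. Libraries of the 2 groups were apart in each of these comparisons, with a two-sided exact permutation p of 0.333, the smallest that 2 against 2 libraries can give. Leaving out ESC replicate 2 reduced the gain from ESCs to 7.11 points, and leaving out ESC replicate 1 raised it to 16.5 points. pESCs and ESCs overlapped and differed by -0.235 points (exact permutation p = 1).

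**Figure D1:**
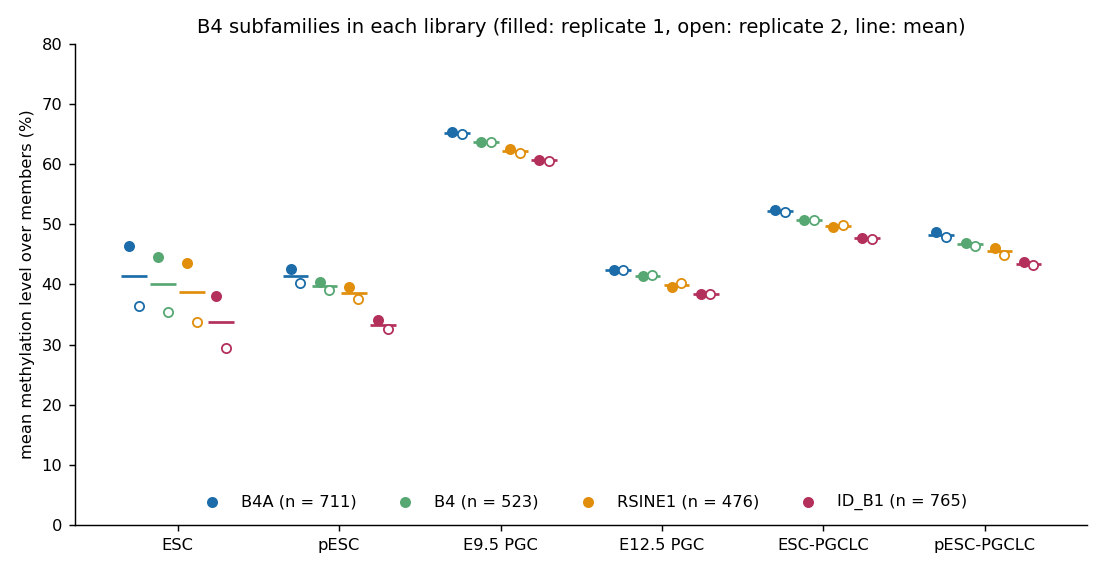
Mean methylation level (%) of the B4A, B4, RSINE1 and ID_B1 members in each of the 12 libraries by group, with filled points for replicate 1, open points for replicate 2 and lines for the mean of the 2. The order B4A, B4, RSINE1, ID_B1 from high to low recurs in every group, and the ESC replicates are the farthest apart.

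Over all members, the subfamilies kept 1 order in all libraries. Their intervals were not matched for this order. B4A was highest, followed by the B4 subfamily, RSINE1 and ID_B1. Averaged over the 12 libraries their mean levels were 48.5%, 47.0%, 45.8% and 42.9%. The neighbours differed by 1.44 points (SD 0.394) for B4A over the B4 subfamily, 1.28 points (SD 0.371) for the B4 subfamily over RSINE1, and 2.89 points (SD 1.70) for RSINE1 over ID_B1. Each of the 6 pairs had the same sign in 12 of 12 libraries. An exact sign-flip test over libraries gave p = 0.000488 for each pair, the smallest that 12 libraries allow, and the same value after adjustment over the 6 pairs. The libraries come from 6 groups and are not 12 independent samples of a population.

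ID_B1 fell short of the others most in the undifferentiated stem cells. B4A exceeded ID_B1 by 8.42 and 7.10 points in the ESC libraries and by 8.56 and 7.56 points in the pESC libraries. In E9.5 PGCs the same difference was 4.56 and 4.47 points, and in E12.5 PGCs 4.12 and 4.02 points. PGCLCs were near the PGCs, with 4.57 and 4.46 points in ESC-PGCLCs and 4.88 and 4.66 points in pESC-PGCLCs. None of the 4 stem cell libraries overlapped with a germ cell library. The difference of the B4 subfamily to ID_B1 was likewise 6.31 points in ESCs and 6.37 points in pESCs, against 3.01 to 3.17 points in the 4 germ cell groups. For RSINE1 it was 4.98 and 5.26 points against 1.51 to 2.03 points. From ESCs to ESC-PGCLCs the B4A difference to ID_B1 fell by 3.24 points, and from pESCs to pESC-PGCLCs it fell by 3.28 points, in both cases with replicates apart (exact permutation p = 0.333, the smallest possible). The differences among B4A, the B4 subfamily and RSINE1 changed by between -0.328 and 0.0551 points from stem cells to their PGCLCs, with replicates overlapping.

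**Figure D2:**
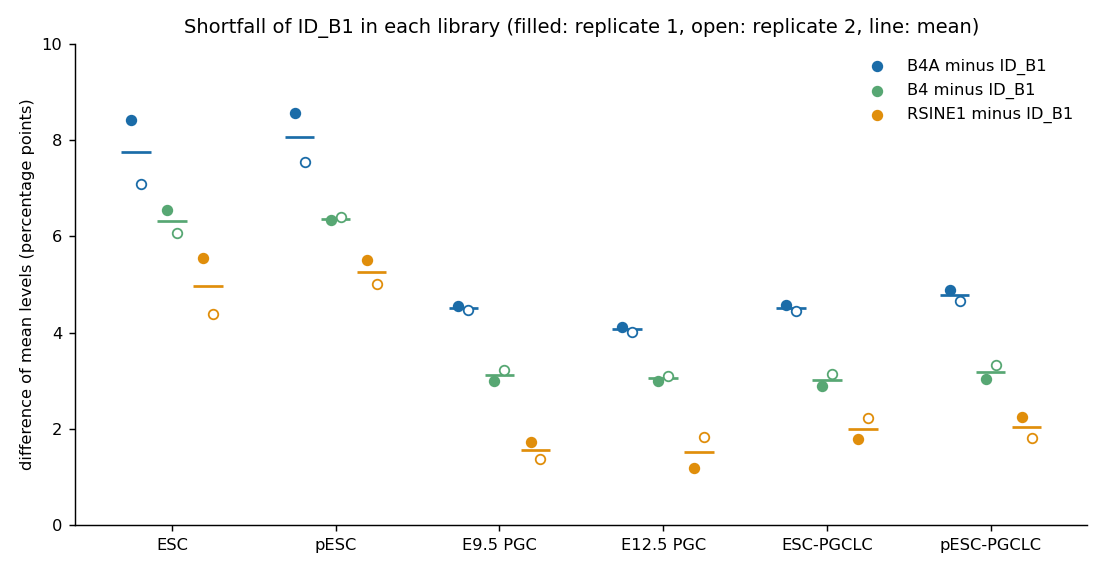
Difference in percentage points between the mean level of B4A, the B4 subfamily or RSINE1 and that of ID_B1, in each library by group, with filled points for replicate 1, open points for replicate 2 and lines for the mean. The 4 stem cell libraries lie above the 8 PGC and PGCLC libraries for each subfamily.

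The intervals differed between subfamilies. B4A and B4 subfamily members had a median length of 216 and 203 consensus bases, RSINE1 128 and ID_B1 146. ID_B1 intervals also started later, at a median of base 49 against 9, 15 and 7 in B4A, the B4 subfamily and RSINE1. Matching intervals on their start or their length alone gave mixed results. Among members starting at base 1 to 10, ID_B1 (n = 249) had a mean of 35.1% in ESCs and 34.8% in pESCs, against 42.0% and 41.6% for B4A (n = 369). At E9.5 the 2 were 62.4% and 65.1%. Among members longer than 100 and up to 150 bases, ID_B1 (n = 286) had 30.9% in ESCs against 39.1% for RSINE1 (n = 284), and 58.0% against 62.7% at E9.5. In the same length class the B4 subfamily (n = 62) had 35.02% in ESCs and 63.9% at E9.5, so that its difference to ID_B1 was not larger in ESCs. Among members starting at base 51 to 100, RSINE1 (n = 29) was below ID_B1 (n = 292) in ESCs, with 31.6% against 33.9%, and in pESCs, with 33.0% against 33.6%. ID_B1 intervals that began after base 100 (n = 85) were lowest, with 25.9% in ESCs, 25.7% in pESCs and 53.1% at E9.5. Longer ID_B1 intervals, over 150 and up to 200 bases (n = 208), had 36.7% in ESCs and 63.0% at E9.5, above the shorter class. The order of B4A, the B4 subfamily and RSINE1 also did not hold in every class. Among members starting at base 1 to 10, the B4 subfamily (n = 235) had 42.4% in ESCs against 42.0% for B4A. At E9.5 it had 64.4% against 65.1%. Among members over 150 and up to 200 bases, RSINE1 (n = 82) had 40.9% in ESCs, above B4A (39.9%) and the B4 subfamily (39.3%). At E9.5 B4A was the highest of these, with 65.2%. Over all lengths the relation of level to length was weak within a subfamily. The Pearson correlation across members was 0.186 at most in any group, where members share libraries and can hold overlapping intervals.

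For each subfamily, the interval from base 1 to the most frequent last base was picked for its coordinates and not its level. In RSINE1 5 members and in ID_B1 21 members had a later last base, up to 292, which the sources used here do not explain. B4A 1-292 had 51.2% and 40.8% in ESCs, and went from 67.4% in both E9.5 libraries to 42.8% and 43.5% at E12.5. B4 1-292 had 52.6% and 41.8% in ESCs, and its PGC levels were 68.3% and 67.6% at the earlier stage and 43.1% and 43.0% at the later. RSINE1 1-165 was close to both, with 51.8% and 38.8%, 65.4% and 64.6%, and 40.8% and 42.2%. ID_B1 1-224 did not follow its subfamily. Its ESC levels were 49.6% and 37.5%, its E9.5 levels 72.9% and 72.0% and its E12.5 levels 45.6% and 46.6%, so it was the lowest of the 4 on average in ESCs and the highest in both PGC groups. In PGCLCs it was also the highest, at 59.0% and 57.4% from ESCs and 52.7% and 53.7% from pESCs. These 4 intervals exceeded the mean of their subfamily in each group.

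Within a group, members spread widely. The SD over members was 18.5 points in ESCs, against 19.2 points in PGCs at E9.5 and 13.2 points at E12.5. A level of at least 80% was found for 410 members in E9.5 PGCs and for 4 in E12.5 PGCs. ESC-PGCLCs had 50 such members and pESC-PGCLCs 12. Members under 10% were most common in stem cells, with 267 in ESCs and 248 in pESCs against 73 to 97 in the germ cell groups. ESC and pESC levels were close across the 2475 members (Pearson r = 0.969), whereas ESC and E9.5 PGC levels were less so (r = 0.551). E9.5 and E12.5 PGCs gave r = 0.869 and the 2 PGCLCs r = 0.922. Across all features r was higher, at 0.992 for ESCs with pESCs and 0.863 for ESCs with E9.5 PGCs. It was 0.972 for E9.5 with E12.5 PGCs and 0.989 for the 2 PGCLCs. These correlations are descriptions across members or features that share libraries and differ in unknown depth.

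**Figure D3:**
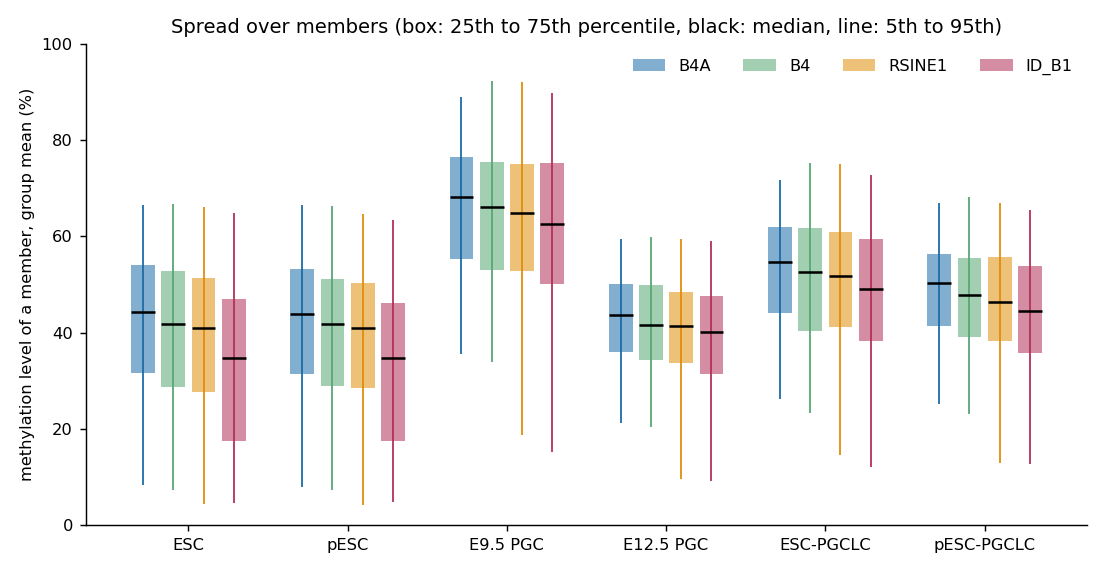
Methylation level (%) of members as the mean of the 2 libraries of a group, by subfamily, with boxes from the 25th to the 75th percentile, black lines at the median and thin lines from the 5th to the 95th percentile. In ESCs and pESCs the ID_B1 boxes reach down to 17.4%, while in E12.5 PGCs all boxes lie between 31.4% and 50.0%.

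A set of 220 members, 8.89% of all, had a mean under 10% in both ESCs and pESCs. ID_B1 contributed 105 of them, 13.7% of that subfamily, against 8.82% of RSINE1, 6.69% of the B4 subfamily and 5.34% of B4A. By the same criterion 11.5% of B1 elements, 7.48% of B2 elements and 4.98% of all other repeats were low in stem cells. The stem cell values chose these members, so only their levels elsewhere are independent of the choice. In E9.5 PGCs 84 of the 220 had at least 50%, 76 had 10% to 50% and 60 remained under 10%. The 84 averaged 5.69% in ESCs and 5.81% in pESCs. Their PGC means were 69.0% at E9.5 and 40.0% at E12.5, and their PGCLC means 47.8% for the ESC origin and 41.4% for the pESC origin. The level of the 84 in E9.5 PGCs was part of their choice, and that in E12.5 PGCs and PGCLCs was not. As a whole, the 220 averaged 38.3% in E9.5 PGCs against 65.3% for the other members, and 27.0% against 52.3% in ESC-PGCLCs. The part that differences in read depth between members play in these levels was not tested.

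The fall between E9.5 and E12.5 ran through nearly the whole class. A member was called when limma gave an adjusted p under 0.05 over all features tested and the 2 means lay at least 10 points apart. E12.5 PGCs differed from E9.5 PGCs in 2074 of 2475 B4 members, 2071 lower and 3 higher. That is 83.8%, against 49.6% of all 137202 features tested and 84.9% of the repeats among them, so the B4 share was near that of repeats as a whole. Of all features, 49.6% were called lower and 0.035% higher. Replicates were apart with E12.5 lower in 2301 members (93.0%), against 68.7% of all features, and with E12.5 higher in 14 (0.566%), against 5.39%. With the median of every library set equal, 661 B4 members were called and 8.17% of these were higher, against 0.145% of the calls before centring. Of all 137202 features, 16677 were called after centring, 1774 of them higher. The centring removed a shift of -1.12 log2 odds between the medians of the 2 stages. Relative to E9.5, E12.5 PGCs kept 65.2% of the level in B4A, 65.0% in the B4 subfamily, 64.2% in RSINE1 and 63.3% in ID_B1.

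The proportion kept varied little with the starting level. Members were binned by the first E9.5 library and read in the second, which had no part in the binning. Of the 986 members between 50% and 70%, the second library averaged 59.7% and E12.5 PGCs 38.8%, or 65.1% of it. The 133 members at 90% or more averaged 93.9% and then 58.6%, or 62.4%. For the 72 members from 10% to 30% the ratio was 67.1%. The 74 members under 10% differed, with 5.20% in the second E9.5 library and 5.44% in E12.5 PGCs.

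**Figure D4:**
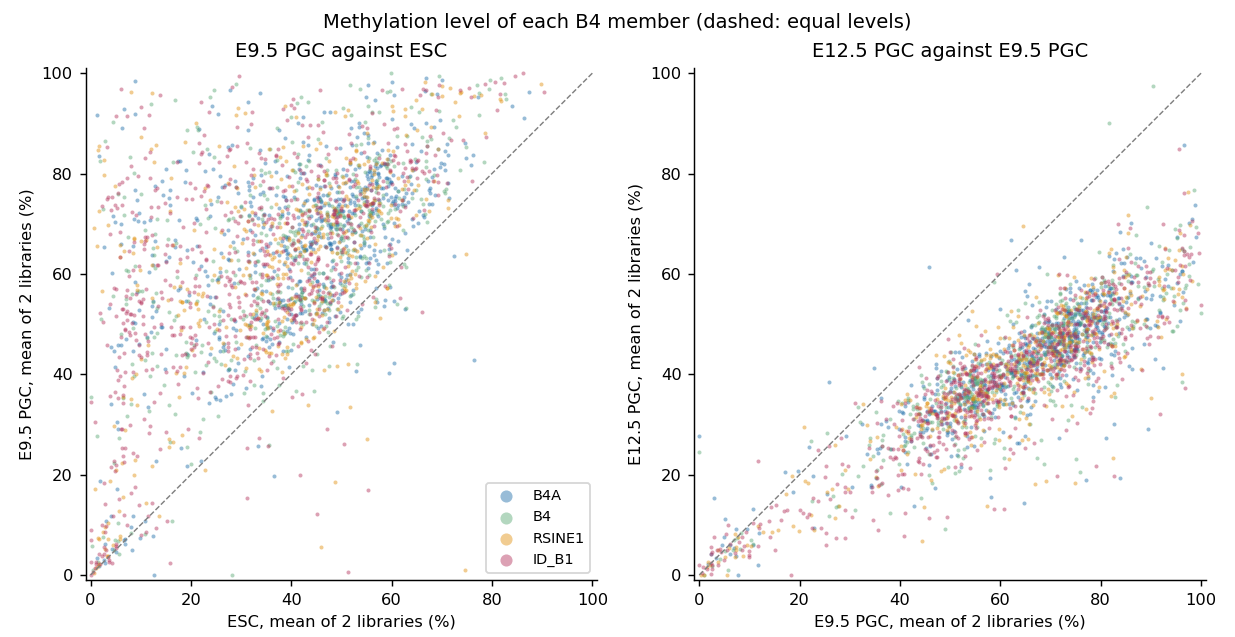
Each point is 1 of the 2475 B4 members, plotted by its mean level (%) in ESCs and E9.5 PGCs on the left and in E9.5 and E12.5 PGCs on the right, coloured by subfamily with a dashed line of equal levels. On the right the points form a narrow band under the line (r = 0.869), and on the left they scatter widely, including 84 members under 10% in both stem cell groups and at 50% or more in E9.5 PGCs.

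Among members whose replicates did not overlap, the largest falls at E12.5 reached over 60 points. B4A 36-292 went from 67.9% and 100% in E9.5 PGCs to 10.5% and 28.1% in E12.5 PGCs (adjusted p = 0.0226 in limma), and this call was lost after centring and without either E12.5 replicate. ID_B1 6-214 fell from 83.5% and 81.7% to 12.8% and 26.7% (adjusted p = 0.000192). B4A 3-290 fell from 82.7% and 96% to 30% and 28% (adjusted p = 0.00128). The 2 latter members lost the call under none of the alternatives run.

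Only 3 members were called higher at E12.5. B4A 3-173 was listed at 0% in both E9.5 libraries and had 20% and 35.3% at E12.5 (adjusted p = 0.00231). B4 8-85 was also listed at 0% in both and then had 13.3% and 35.6% (adjusted p = 0.000338), a rise of 24.4 points that was 13.3 points without E12.5 PGC replicate 2. ID_B1 69-223 had 12.4% and 10.9%, then 23.4% and 22.1% (adjusted p = 0.00845). Their calls held under all alternatives run. B4 8-85 was at 18.9% to 37.4% in the 4 stem cell libraries and at 10.8% and 9.85% in ESC-PGCLCs.

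Neither PGCLC reached the B4 level of E9.5 PGCs. In ESC-PGCLCs 1434 members were lower and 13 higher than in E9.5 PGCs, 58.5% of the class against 29.8% of all features and 41.4% of repeats. In pESC-PGCLCs 1788 were lower and 7 higher, 72.5% against 40.3% and 62.7%. Of all features, 29.6% were called lower and 0.168% higher in ESC-PGCLCs, and 40.2% lower and 0.127% higher in pESC-PGCLCs. With libraries centred on their median, the calls were 381 and 555, of which 13.9% and 6.67% were higher, against 0.898% and 0.390% before centring. All 137202 features then gave 9419 and 13666 calls, 1815 and 1456 of them higher. The median shifts were -0.66 and -0.80 log2 odds. Both comparisons use the same E9.5 libraries. Called shares were similar among subfamilies, from 56.8% in the B4 subfamily to 61.9% in B4A for ESC-PGCLCs and from 69.7% in RSINE1 to 76.1% in B4A for pESC-PGCLCs.

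RSINE1 30-163 gave the largest fall in both PGCLCs. It had 96.6% and 96% in E9.5 PGCs, 36.1% and 24.6% in ESC-PGCLCs (adjusted p = 0.00107) and 22.4% and 36.6% in pESC-PGCLCs (adjusted p = 0.000478). In E12.5 PGCs it had 28.6% and 51.5%, and in the stem cells 4.49% to 11.7%. B4 69-223 was at 100% in both E9.5 libraries and at 48.3% and 50.3% in pESC-PGCLCs (adjusted p = 0.000258). These 2 members kept their calls under all alternatives run. RSINE1 2-62 fell from 84.2% and 85.7% to 41.2% and 20% in pESC-PGCLCs (adjusted p = 0.0240), a call lost after centring, without either E9.5 replicate and without pESC-PGCLC replicate 2. Its E12.5 PGC replicates were 30.8% and 80%.

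A few members were higher in PGCLCs than in E9.5 PGCs. B4A 24-143 had 40.4% and 45.2% in E9.5 PGCs and 10.7% and 16.7% at E12.5. ESC-PGCLCs had 88% and 85% (adjusted p = 0.00187 against E9.5), and pESC-PGCLCs 77.6% and 63.6% (adjusted p = 0.0105). The last call was lost without E9.5 PGC replicate 1, with an adjusted p of 0.0545. In the stem cells this member was at 73.3% to 82.5%, so that PGCLCs lay near their parent cells and away from the PGCs. RSINE1 13-163 had 4% and 7.14% in E9.5 PGCs and was listed at 0% in both E12.5 libraries, but had 41.4% and 46% in pESC-PGCLCs (adjusted p = 0.000368 against E9.5). Its stem cell libraries had 38.9% to 53.1%. B4 8-85, described above, had 26.3% and 28.8% in pESC-PGCLCs (adjusted p = 0.000507 against E9.5). In ESC-PGCLCs, B4 16-288 had 87.5% and 88.9% against 60.2% and 56.6% at E9.5 (adjusted p = 0.000728), and RSINE1 5-105 had 84.4% and 85.4% against 62.5% and 47.8% at E9.5 (adjusted p = 0.00246).

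Against E12.5 PGCs the direction turned. ESC-PGCLCs were higher in 938 members and lower in 21, 38.7% of the class against 22.8% of all features and 39.7% of repeats. pESC-PGCLCs were higher in 251 and lower in 8, 10.5% against 7.1% and 12.5%. Of all features, 22.2% were called higher and 0.523% lower in ESC-PGCLCs, and 6.81% higher and 0.287% lower in pESC-PGCLCs. The second count rested on every library. It was 0 without pESC-PGCLC replicate 1, 10 without pESC-PGCLC replicate 2, 15 without E12.5 PGC replicate 1 and 38 without E12.5 PGC replicate 2, while the count for ESC-PGCLCs stayed between 712 and 799. With all 12 libraries in 1 fit the counts were 335 and 11. After centring, 223 and 20 members were called, of which 75.8% and 85% were higher, against 97.8% and 96.9% before. All 137202 features then gave 7182 and 1197 calls, 5358 and 815 of them higher. The median shifts were 0.45 and 0.31 log2 odds.

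B4A 24-143 showed the largest rise over E12.5 PGCs in both PGCLCs, by 72.8 points from ESCs (adjusted p = 0.00190) and 56.9 points from pESCs (adjusted p = 0.0102), the latter lost without E12.5 PGC replicate 1 or pESC-PGCLC replicate 1. In ESC-PGCLCs, RSINE1 13-147 had 79.3% and 87.0% against 22.1% and 35% (adjusted p = 0.00280). ID_B1 87-221 had 72% and 73.4% there against 18.5% and 20.9% (adjusted p = 0.00101). In pESC-PGCLCs, RSINE1 13-163 was 43.7 points above E12.5 PGCs (adjusted p = 0.00473), a call lost without pESC-PGCLC replicate 1 with an adjusted p of 0.0501. Falls were fewer. RSINE1 12-154 had 4.55% in 1 ESC-PGCLC library and 0% in the other, against 100% and 39.1% at E12.5 (adjusted p = 0.0310). It fell by 67.3 points, and by 36.9 points without E12.5 PGC replicate 1, and was not called without either ESC-PGCLC replicate. B4 7-290 fell in pESC-PGCLCs from 49.8% and 49.1% to 29.0% and 34.4% (adjusted p = 0.0164). B4 6-140 fell there by 27.2 points (adjusted p = 0.0470) and B4A 100-245 by 19.2 points (adjusted p = 0.0428). These 3 calls were lost with all 12 libraries in 1 fit and without any 1 of the 4 libraries compared. Those of B4 6-140 and B4A 100-245 were also lost after centring, and that of B4A 100-245 on untransformed levels.

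The 2 PGCLCs differed in 5 called members, 0.202% of the class against 0.0948% of all features and 0.134% of repeats. At an unadjusted limma p under 0.05 there were 667 of 2475 members, against 26558 of all 137202 features. The direction of the class mean was also that of most members, since pESC-PGCLCs were lower with replicates apart in 1333 members (53.9%) against 42.2% of all features, and higher in 120 (4.85% against 9.24%). Of the 5 called, 3 were higher in pESC-PGCLCs and 2 lower, against 0.0445% and 0.0503% of all features. The medians differed by -0.14 log2 odds, and after centring 3 of 4 were higher (75% against 60% before). Of all 137202 features 97 were then called, 69 of them higher. The 2 libraries of ESC-PGCLCs listed B4A 94-149 at 0%, whereas those of pESC-PGCLCs had 90.9% and 80% (adjusted p = 0.00556). In the 4 stem cell libraries it was at 49.0% to 65.3%, and its PGC levels were 55.6% and 65.4% at the earlier stage and 44.1% and 44.4% at the later, so the 2 PGCLCs lay on either side of all other groups. ID_B1 85-210 was likewise at 0% in the libraries of ESC-PGCLCs, but at 39.8% and 43.5% in those of pESC-PGCLCs (adjusted p = 0.00143), within the range of 31.4% to 53.2% seen in the other 8 libraries. With these levels ESC-PGCLCs were also called lower than E9.5 PGCs (adjusted p = 0.000725 and 0.000324) and E12.5 PGCs (adjusted p = 0.00162 and 0.000522). For B4A 94-149, pESC-PGCLCs were 41.2 points above E12.5 PGCs (adjusted p = 0.0178), a call lost after centring, without either E12.5 replicate and without pESC-PGCLC replicate 1.

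B4 16-288 showed the opposite, with 87.5% and 88.9% in ESC-PGCLCs against 47.2% and 41.4% in pESC-PGCLCs (adjusted p = 0.00843) and 35.4% to 60.2% in all other libraries. Between the PGCLCs, the calls of B4A 94-149, ID_B1 85-210 and B4 16-288 held under all alternatives run. The alternatives reused the same levels, so none addressed read depth. B4 149-290 had 2.60% and 2.33% in ESC-PGCLCs, against 21.7% and 14.7% (adjusted p = 0.0368), with 1.54% to 7.83% in stem cells and 32% to 37.8% in PGCs. Its call was lost without either ESC-PGCLC replicate and without pESC-PGCLC replicate 1. ID_B1 87-221 had 50.2% and 47.7% in pESC-PGCLCs, a difference of -23.8 points to ESC-PGCLCs (adjusted p = 0.0368), and its call was lost after centring, with all 12 libraries in 1 fit and without any 1 of the 4 libraries. The count itself was 45 with an offset of 0.1 and 74 on untransformed levels, and lay between 3 and 16 when 1 library was left out, with 16 without ESC-PGCLC replicate 1 and 3 without pESC-PGCLC replicate 1.

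B4 methylation was higher in both PGCLCs than in the stem cells they were made from. ESC-PGCLCs were higher than ESCs in 605 members and lower in 19, 25.2% of the class against 14.6% of all features and 15% of repeats. pESC-PGCLCs were higher than pESCs in 387 and lower in 8, 16.0% against 9.66% and 9.79%. Of all features, 13.7% and 8.91% were called higher and 0.899% and 0.746% lower. ID_B1 was called most often, in 32.4% of its members from ESCs and 22.7% from pESCs, against 21.7% to 22.6% and 11.3% to 13.6% in the other subfamilies. Its median gain was 11.04 points from ESCs and 7.92 points from pESCs, against 8.30 to 8.92 and 4.18 to 5.12 points. The counts moved with single libraries. The ESC count was 1196 without ESC replicate 1, 392 without ESC-PGCLC replicate 1 and 339 without ESC-PGCLC replicate 2. The pESC count was 229 without pESC replicate 1, 189 without pESC-PGCLC replicate 1 and 203 without pESC-PGCLC replicate 2.

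Centring turned the split of these calls. The medians over all features rose by 1.17 log2 odds from ESCs to ESC-PGCLCs and by 0.92 from pESCs to pESC-PGCLCs. Relative to that shift, 1158 and 976 members were called, of which 23.6% and 21.8% were higher, against 97.0% and 98.0% before centring. The split turned for features as a whole too. Of all 136848 features, 44077 and 39929 were called after centring, 7410 and 6363 of them higher. The median over features was 12.9% in ESCs and 25.7% in ESC-PGCLCs. This shift of the medians is not the change of a typical feature. Before centring, the change from ESCs to ESC-PGCLCs had a median of 1.26 points over all features and 9.17 points over B4 members. After centring it was -3.22 and -8.76 points, so both turned negative.

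The members named for the largest gains were at 17.8% or less in all 4 stem cell libraries. ID_B1 1-136 had 6.82% and 13.5% in ESCs and 84.6% and 100% in ESC-PGCLCs (adjusted p = 0.0123), and 10% and 0% in pESCs and 77.1% and 72.9% in pESC-PGCLCs (adjusted p = 0.0334). The first call was lost without either ESC replicate, and the second without pESC replicate 2 or either pESC-PGCLC replicate. RSINE1 27-131 rose from 0.592% and 2.83% to 63.0% and 71.9% in ESC-PGCLCs (adjusted p = 0.000188), and RSINE1 3-79 from 17.8% and 7.66% to 81.5% and 75.4% (adjusted p = 0.000338). From pESCs, B4A 85-146 rose from 7.6% and 3.93% to 65.3% and 61.7% (adjusted p = 0.000366) and B4A 4-105 from 12.02% and 8.15% to 66.8% and 66.9% (adjusted p = 0.00154). These 4 members were at 71.5% to 93.7% in E9.5 PGCs and at 42.6% to 58.9% in E12.5 PGCs, and their calls held under all alternatives run.

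Few members were called lower after induction. RSINE1 45-148 had 67.6% to 92.3% in the 4 stem cell libraries, 22.2% and 13.3% in ESC-PGCLCs (adjusted p = 0.0193) and 31.6% and 12.3% in pESC-PGCLCs (adjusted p = 0.0162), and was at 0% to 2.04% in the 4 PGC libraries. Without either ESC replicate or ESC-PGCLC replicate 2 the first call was lost, and without pESC replicate 1 or pESC-PGCLC replicate 2 the second. ID_B1 40-222 had 28% to 64.4% in stem cells, 5.64% and 9.35% in ESC-PGCLCs (adjusted p = 0.0116), 5.47% and 12.8% in pESC-PGCLCs (adjusted p = 0.0472) and 0.495% to 2.75% in PGCs. The first of its calls was lost on untransformed levels and without ESC-PGCLC replicate 1. The second, a fall by 31.7 points that was a fall by 18.9 points without pESC replicate 1, was lost with an offset of 0.1, on untransformed levels, and without pESC replicate 1 or either pESC-PGCLC replicate. ID_B1 2-109 had 50.4% to 59.7% in stem cells, 25.04% and 24.4% in pESC-PGCLCs (adjusted p = 0.00434) and 11.6% to 17.9% in PGCs, and kept its call under all alternatives run. B4A 94-149, which was at 44.1% to 65.4% in PGCs, also fell by 57.2 points from ESCs to ESC-PGCLCs (adjusted p = 0.000114).

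No B4 member was called between pESCs and ESCs by limma, as for all 148012 features tested (0% of them). An unadjusted p under 0.05 was reached by 35 members, and 7 members were called without pESC replicate 1. Of all 148012 features, 2054 reached an unadjusted p under 0.05, against the 35 of 2475 members. pESCs were higher with replicates apart in 200 members (8.08%) against 8.95% of all features, and lower in 133 (5.37%) against 6.13%. The medians over all features differed by 0.11 log2 odds, and centring also gave 0 calls. ESC replicate 1 was 9.39 points above ESC replicate 2 on average over the members.

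Whether induction changed a member differently by origin was tested by the interaction of origin and induction. This called 3 members, 0.121% of the class against 0.0365% of all features and 0.0327% of repeats. For B4A 94-149 and ID_B1 85-210 the signed change was higher from pESCs than from ESCs, where both fell to a listed level of 0%. For B4 16-104 it was lower (0.0183% of all features in each direction).

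**Figure D5:**
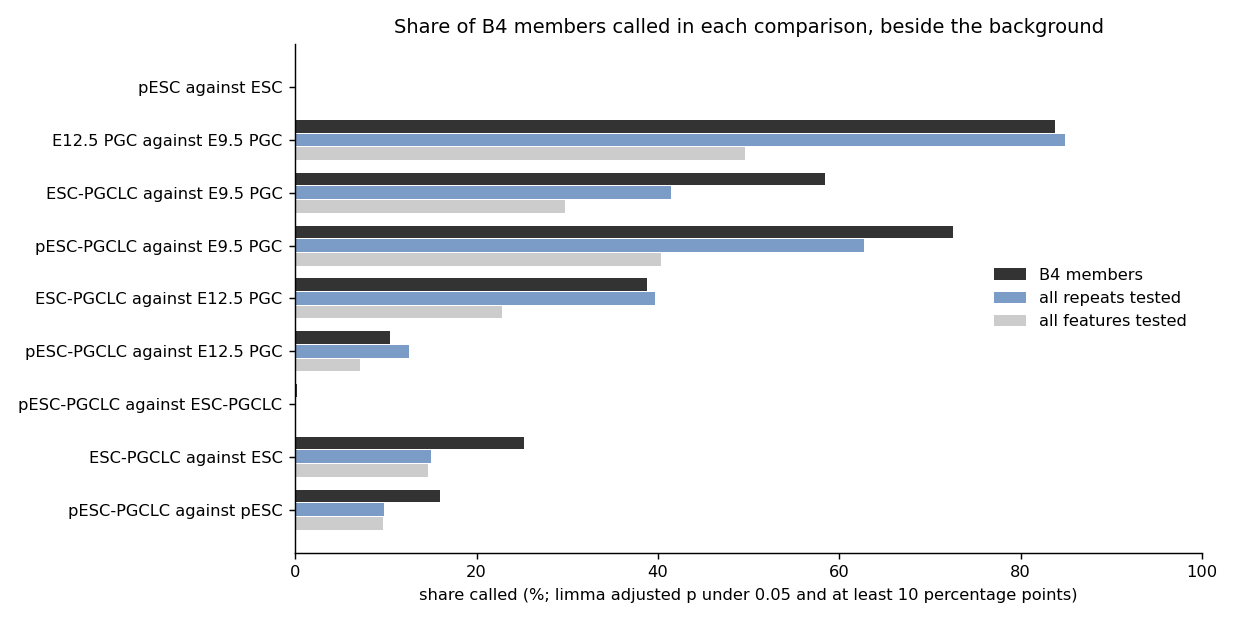
Share of features called (%) in 9 comparisons, as bars from 0 for the B4 members, all repeats tested and all features tested. B4 lies near repeats at E12.5 against E9.5 (83.8% and 84.9%), above them for both PGCLCs against E9.5 (58.5% and 72.5%) and on induction (25.2% and 16.0%), and at 0% between pESCs and ESCs. Shares of B1 and B2 are not drawn.

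Set beside other repeats, B4 was close to the other SINE classes. Its mean over the 12 libraries was 45.9%, against 44.8% for 2214 B1 elements and 47.7% for 1096 B2 elements. B4 exceeded B1 in 11 of 12 libraries, by 1.15 points (exact sign-flip p = 0.00146, also after adjustment over 3 classes). Over the 6 group means the adjusted p was 0.0625 (exact sign-flip test), and in the 8 PGC and PGCLC libraries the difference was 0.644 points. The difference was 2.35 points in ESCs and 1.98 points in pESCs, but -0.110 points in E12.5 PGCs. B4 was below B2 in 12 of 12 libraries, by 1.77 points (adjusted p = 0.000732, exact sign-flip test). B4 was also below the 32232 other repeats in all libraries, by 5.76 points (adjusted p = 0.000732, exact sign-flip test). B4 minus other repeats was -8.44 and -9.36 points in the ESC libraries and -8.71 and -8.59 points in pESCs, but -2.29 and -2.42 points at E9.5 and -4.65 and -4.87 points at E12.5. E12.5 PGCs kept 64.4% of the E9.5 level in B4, 65.6% in B1 and 65.8% in B2, against 72.2% in L1 elements. From ESCs to ESC-PGCLCs the mean went from 35.9% to 49.0% in B1 and 39.2% to 52.3% in B2, against 38.2% to 50.0% in B4. From pESCs to pESC-PGCLCs it went from 36.0% to 45.2% in B1 and 39.3% to 47.9% in B2, against 38.0% to 45.9% in B4. At E9.5 the means were 61.9% in B1, 64.9% in B2 and 62.9% in B4. Called shares of B1 and B2 are not given here.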

How the data were processed

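RRBS libraries of 12 samples were analysed. The authors aligned reads to mm10 with Bismark 0.16.3 and Bowtie2, per the submitters' processing notes. For each feature they deposited the fraction of methylated CpG calls (mCG/CG), printed here as a percent. The paper's methods describe a correction of levels for bisulfite non-conversion. Whether the deposited fractions carry it was not tested. Coverage minimum and read counts are not given in the sources used here, so no count test was run. Library groups came from the sample titles. Levels were transformed as log2((level + 0.01)/(1 - level + 0.01)) and fitted with limma 3.58.1 in R 4.3.3 within the stem cell pair, the 4 germ cell groups or the 2 origins with their PGCLCs, on features with a level in all libraries of the fit. P-values were adjusted by Benjamini-Hochberg over all features, and a call required an adjusted p under 0.05 and 10 points. limma was tested on simulated data. Means over members were compared by two-sided exact permutation, and subfamilies and classes by exact sign-flip tests over the 12 libraries. Named members were the 3 largest rises and falls per comparison among called members with replicates apart, and the 2 highest and 2 lowest overall. The members and lists were chosen with earlier results of these data known. Alternatives were another offset, untransformed levels, features shared by all libraries, 1 fit of all libraries, median centring, no minimum difference, medians, all B4 rows, a replicate block and leaving out each library.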

Additional observations from a re-analysis of the deposited data

Results flagged for a closer look

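In 3 members the change on induction differed between the origins by limma's interaction term, 0.121% of the class against 0.0365% of all features. The change of B4A 94-149 was 90.9 points higher from pESCs than from ESCs (adjusted p = 0.0126), and that of ID_B1 85-210 was 35.2 points higher (adjusted p = 0.00721). Both were listed at 0% in the 2 ESC-PGCLC libraries. B4 16-104 was listed at 0% in both ESC libraries and had 5.56% and 4.55% in pESCs. The PGCLC levels were 28% and 29.2% for the ESC origin and 20.9% and 20.6% for the pESC origin, a difference in change of -12.9 points (adjusted p = 0.0266). With an offset of 0.1 or on untransformed levels none of the 3 was called. B4 16-104 was lost without any 1 of the 8 libraries, B4A 94-149 without either replicate of ESC, pESC or pESC-PGCLC, and ID_B1 85-210 without either replicate of pESC or pESC-PGCLC. At an unadjusted limma p under 0.05 there were 130 of 2475 members, against 4053 of all 136848 features. For the class mean, the gain from pESCs was 3.87 points smaller than that from ESCs, and between -8.56 and 0.826 points as 1 library was left out, both extremes coming from the 2 ESC replicates.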

How the results depend on the processing

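The depth of each level is unknown and each group has 2 libraries, which limits every call. No alternative addressed depth, and dropping the minimum difference could not lose a named call. Of 146 values recomputed other than by leaving out a library, 129 kept their direction and side of the threshold, or stayed within 1.5 times for counts. The 129 include the replicate block of each class mean. That block averages the same differences, so its value could not move and tests nothing. Median centring gave 661 called members for E12.5 against E9.5 PGCs, 381 and 555 for ESC-PGCLCs and pESC-PGCLCs against E9.5, 223 and 20 against E12.5, and 1158 and 976 on induction from ESCs and pESCs. One fit of all 12 libraries gave 335 and 11 against E12.5 and 5 for the interaction. An offset of 0.1 gave 45 between PGCLCs and 0 for the interaction, and untransformed levels 74 and 0. Over the 6 group means, B4 exceeded B1 by 1.15 points with an adjusted p of 0.0625 (exact sign-flip test). Causes were not tested.

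Leaving out 1 library gave 1936 to 1968 calls for E12.5 against E9.5, 1243 to 1278 and 1567 to 1648 for the PGCLCs against E9.5, 712 to 799 and 0 to 38 against E12.5, 3 to 16 between PGCLCs, 339 to 1196 and 189 to 301 on induction, 0 to 6 for the interaction and 0 to 7 for pESCs against ESCs. The class mean of pESCs minus ESCs ranged from -4.93 to 4.46 points, with 4.46 points without ESC replicate 1 and 0.649 points without pESC replicate 2, and the interaction of the means from -8.56 to 0.826 points. Replicate numbers are shared between groups, but no source says that they mark pairs. Deviations of same-numbered libraries correlated at 0.43 for ESCs with pESCs and between -0.06 and 0.14 for other groups across all features. The fit with a replicate block gave 171 calls for pESC-PGCLCs against E12.5, 3 between PGCLCs and 2 for the interaction, and stayed within 1.5 times for the other counts. Of the named calls, 5 were lost under the replicate block. These were B4 149-290 and ID_B1 87-221 between PGCLCs, and B4A 100-245 in pESC-PGCLCs against E12.5. The others were ID_B1 40-222 from pESCs and the interaction of B4 16-104. Of the named calls, 7 were lost after centring, 4 with all 12 libraries in 1 fit, 4 with an offset of 0.1 and 6 on untransformed levels. Of 212 refits without 1 library, 65 lost a call. No named call changed direction. Named members were chosen with replicates apart, so leaving out a library could not reverse a difference between 2 groups. For those differences the unchanged direction tests nothing.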

Other observations

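The 2 lowest and 2 highest members over all libraries are described by their values. ID_B1 152-209 was at 0% in 8 of 12 libraries and at 1.02% at most, and B4 144-219 was at 1.79% at most. RSINE1 3-67 ranged from 64.3% to 98.5% and ID_B1 27-137 from 64.2% to 100%. In both, the highest libraries were those of E9.5 PGCs and the lowest those of E12.5 PGCs. Their levels in stem cells were 82.8% to 94.4%.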
